A study of Mus musculus with 12 samples.

Results

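Prrx1 (paired related homeobox 1) was read in primary mouse aortic smooth muscle cells (SMC) by the array probe ASMM10AP1B102937507V4, 1 of the 60641 probes in the authors' table. The probe was chosen by its identifier, for a gene whose signal over these same arrays was already known, so its levels and changes are described here without a test. The study sought links among long non-coding RNAs, mRNAs and microRNAs that may depend on Oct4, a transcription factor of pluripotent cells. It used SMC with Oct4 knockdown and POVPC, an oxidized phospholipid found in atherosclerotic lesions. All cells received an siRNA for 48 h in medium without serum, either a pool against Oct4 (siOCT4) or a non-target pool (siNT), and then POVPC at 10 µg/mL or its vehicle DMSO for 24 h. The groups are called by siRNA and treatment, siNT-DMSO and siNT-POVPC for the controls and siOCT4-DMSO and siOCT4-POVPC for the knockdown, and each had 3 single-colour arrays of 12 in all. The labels give no strain, age or sex for the cells and do not say whether the 3 replicates of a group were separate cultures, so errors and p-values measure only the spread between these samples, which may be technical. No Oct4 probe could be named, so the knockdown itself was not read on these arrays. Of 7 SMC markers, Tagln and Smtn had a named probe, well above background on 11 and 12 of the 12 arrays, while Acta2 and Myh11 were not analysed here.

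Prrx1 encodes a paired-type homeodomain protein that is expressed in embryonic mesenchyme, above all in the limb bud and the face, and is needed for the skeleton formed there. In cells of the vessel wall it is known for inducing the matrix gene tenascin-C, and it can raise the binding of serum response factor (SRF) to DNA, the factor that drives both SMC contractile genes and growth-related immediate early genes. It is therefore of interest beside matrix, contractile and SRF-responsive genes in cultured SMC.

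The gene lies on the minus strand of chromosome 1 (GRCm38). The probe belongs to the transcript ENSMUST00000075805 at chr1:163245119-163313672. A second probe, ASMM10AP1B110990993V4, belongs to the transcript ENSMUST00000174397 at chr1:163252866-163313668. The probes are 60 bases long, and 30 bases of each are printed because they show how the probes relate. Capitals mark the 15 bases they share, at the start of one and at the end of the other. All 3 reading frames of the first probe hold a stop codon, so it is not coding over its whole length.
ENSMUST00000075805 probe, bases 1 to 30: ACACGAGGGGCTTCAtaacggattctaacg
ENSMUST00000174397 probe, bases 31 to 60: cccaagatgttgtttACACGAGGGGCTTCA
The genes next to Prrx1 in the RefSeq table of GRCm38.p6 are Mroh9 and Gorab, and no other gene within 1 Mb had a named probe.

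Prrx1 signal was higher after POVPC with either siRNA. The values are log2 signals after quantile normalization, on which a difference of 1 is a doubling. In siNT-DMSO the 3 arrays read 10.50, 10.17 and 10.19, a mean of 10.29 ± 0.18 (SD, n = 3). In siNT-POVPC they read 10.92, 11.14 and 11.50, a mean of 11.19 ± 0.29 (SD, n = 3). Every POVPC array was above every DMSO array of the siNT cells. In siOCT4-DMSO the arrays read 10.66, 10.25 and 9.40, a mean of 10.10 ± 0.64 (SD, n = 3). In siOCT4-POVPC they read 11.27, 11.16 and 11.22, a mean of 11.22 ± 0.06 (SD, n = 3). The siOCT4-POVPC arrays lay closest together and the siOCT4-DMSO arrays farthest apart, with replicate 3 the lowest Prrx1 value of all 12 arrays.

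In order of the means, siOCT4-DMSO was lowest, then siNT-DMSO, siNT-POVPC and siOCT4-POVPC. The ranges of the DMSO groups overlapped, as did those of the POVPC groups. The highest DMSO array, 10.66, was below the lowest POVPC array, 10.92, so the 6 DMSO and 6 POVPC arrays did not overlap. The same order of treatment stood in the processed signals before normalization, which ran from 765 to 1787 in DMSO arrays and from 2295 to 3531 in POVPC arrays. On every array the probe was well above background, not saturated and not marked as an outlier spot. It is printed once per array, and 50 other probes printed in several spots had a median SD of 0.05 to 0.10 on the log2 scale within an array.

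**Figure D1:**
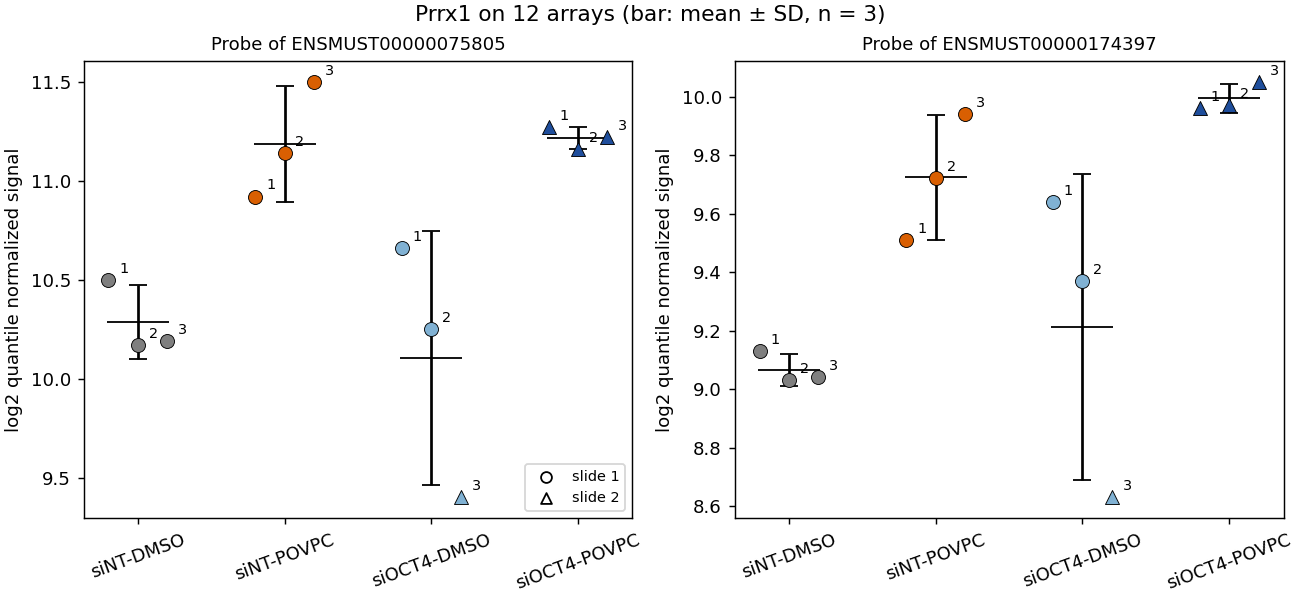
Log2 quantile normalized signal of the 2 Prrx1 probes on each of the 12 arrays, with the replicate number beside each point, circles for slide 1 and triangles for slide 2, and the group mean ± SD (n = 3) as a bar. POVPC arrays lie above the DMSO arrays of the same siRNA with both probes, and siOCT4-DMSO replicate 3 is the lowest array, at 9.40 and 8.63.

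The change in each of the 4 comparisons was taken from a limma fit of all 12 arrays. Prrx1 was higher by 0.90 (SE 0.28, log2 scale) in siNT-POVPC vs. siNT-DMSO, a fold of 1.86. It was higher by 1.12 (SE 0.28) in siOCT4-POVPC vs. siOCT4-DMSO, a fold of 2.17. The paper lists Prrx1 among downregulated mRNAs, under a microRNA that it gives for siOCT4-POVPC vs. siOCT4-DMSO. The direction read here in that comparison was the opposite. Among the mRNAs that the authors picked for a change with POVPC in siNT cells, both Prrx1 probes are listed as higher, as read here. Over all probes the POVPC groups lay wholly above the DMSO groups for 7.04% in siNT cells and 12.9% in siOCT4 cells, and since Prrx1 was chosen on these contrasts nothing is read from its place among them. The POVPC change in siOCT4 cells minus that in siNT cells was 0.22 (SE 0.40), smaller than its error. No probe of the 54505 tested passed an adjusted p of 0.05 for that difference with limma, while 4560 had an unadjusted p under 0.05 and 2374 passed with the slide as a block.

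Between the siRNAs the Prrx1 changes were smaller than their errors. In siOCT4-DMSO vs. siNT-DMSO the change was -0.18 (SE 0.28), and in siOCT4-POVPC vs. siNT-POVPC it was 0.03 (SE 0.28), both with overlapping groups. Across the array these were the comparisons with many calls, a call being an adjusted p under 0.05 and a fold of at least 1.5. They held 6.6% and 11.3% of the probes tested, against 0.00734% and 0.00183% for POVPC in siNT and in siOCT4 cells. Calls ran 2400 higher and 1196 lower in siOCT4-DMSO vs. siNT-DMSO, but 2061 higher and 2802 lower when arrays were scaled to their 75th percentile. In siOCT4-POVPC vs. siNT-POVPC they ran 3912 higher and 2225 lower, and 3411 higher and 8614 lower under that scaling, which moved the median of all probes from -0.06 to -0.21 and from -0.08 to -0.27. Prrx1 itself read -0.05 and 0.07 under it, above the median of all probes in both, whereas with quantile normalization its -0.18 in DMSO was below that median.

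The second probe gave the same picture for POVPC within each siRNA. Over both siRNAs its DMSO and POVPC arrays overlapped, unlike those of the first probe, with 9.64 in siOCT4-DMSO against 9.51 in siNT-POVPC. It read 9.13, 9.03 and 9.04 in siNT-DMSO and 9.51, 9.72 and 9.94 in siNT-POVPC. It read 9.64, 9.37 and 8.63 in siOCT4-DMSO and 9.96, 9.97 and 10.05 in siOCT4-POVPC. Its POVPC change was 0.66 (SE 0.23) in siNT cells and 0.78 (SE 0.23) in siOCT4 cells, with no overlap of the groups in either, and the difference of the changes was 0.12 (SE 0.33). With siOCT4 it read higher by 0.15 (SE 0.23) in DMSO, where the member probe was lower, and by 0.27 (SE 0.23) in POVPC. The siOCT4-POVPC arrays all lay above the siNT-POVPC arrays with this probe, 9.96 against 9.94 at the nearest, as 18.4% of all probes did. Across the 12 arrays the probes correlated with a Pearson r of 0.95, and with an r of 0.98 for the deviations from the group means. Of the other probes tested, 2 went more closely with the first Prrx1 probe than this one. The probes share RNA, array and 15 bases, and the correlation is a description.

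**Figure D2:**
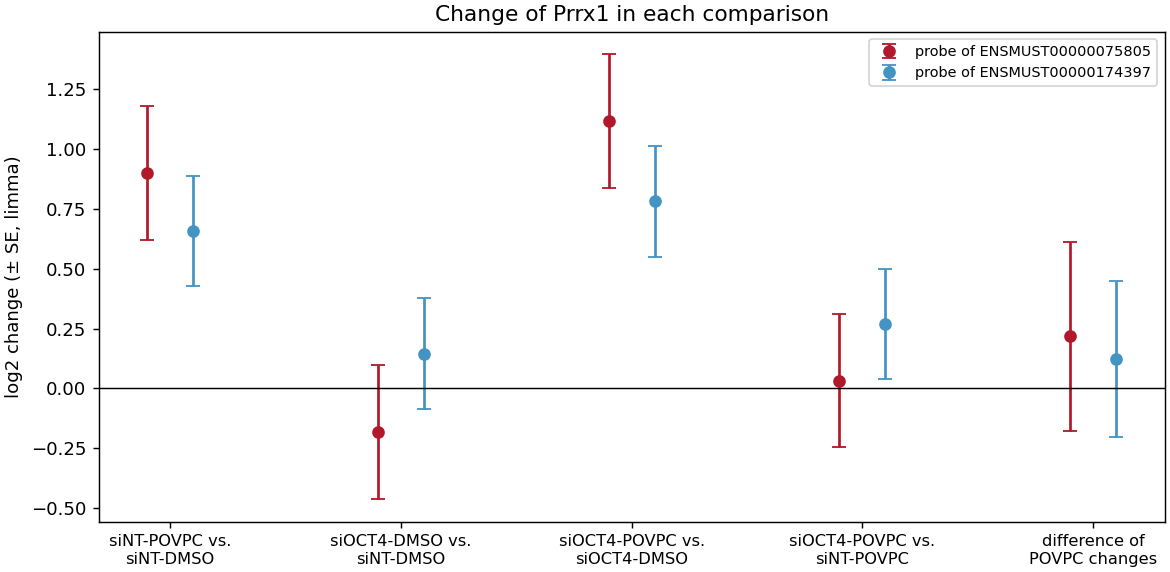
Log2 change (± SE from limma) of the 2 Prrx1 probes in the 4 comparisons, and the POVPC change in siOCT4 cells minus that in siNT cells. The POVPC changes, 0.90 and 1.12 for the probe of ENSMUST00000075805, lie above 0, and the siRNA changes, -0.18 and 0.03, lie within their error of it.

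The size of the POVPC change in siOCT4 cells rested on siOCT4-DMSO replicate 3. Prrx1 on that array was 1.06 below the mean of the other 2 arrays of its group on the log2 scale (0.87 with the second probe), and 5.96% of all probes tested were further down there. The array had the lowest mean correlation with its group, an r of 0.955 over all probes, while the other 11 arrays had 0.966 to 0.993. Without it Prrx1 was higher by 0.76 (SE 0.21) in siOCT4-POVPC vs. siOCT4-DMSO and by 0.17 (SE 0.21) in siOCT4-DMSO vs. siNT-DMSO, where the sign turned, and the difference of the POVPC changes was -0.14 (SE 0.28). The second probe then read 0.49 (SE 0.16), 0.44 (SE 0.16) and -0.17 (SE 0.22). Calls for the knockdown rose over the whole array in that fit, to 7.93% of all probes higher and 3.04% lower in siOCT4-DMSO vs. siNT-DMSO, and to 9.01% higher and 6.35% lower in siOCT4-POVPC vs. siNT-POVPC.

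The same array is also the single siOCT4-DMSO array on slide 2, with the 3 siOCT4-POVPC arrays, while the other 8 arrays are on slide 1. The slides were told apart by the scan date in the scanner headers, so slide here stands for arrays scanned together. On slide 1, with siOCT4-DMSO replicates 1 and 2, Prrx1 differed by 0.17 (SE 0.24) in siOCT4-DMSO vs. siNT-DMSO and the POVPC change in siNT cells was 0.90. On slide 2 the POVPC change in siOCT4 cells was 1.82 against the single DMSO array. With the slide as a block the changes were 0.17 (SE 0.21), 1.82 (SE 0.26) and, for siOCT4-POVPC vs. siNT-POVPC, 1.09 (SE 0.33), a value that rests on that array alone. For siOCT4-POVPC vs. siNT-POVPC no slide holds both groups, so slide and group cannot be told apart, for Prrx1 or for any gene below. The same holds for siOCT4-POVPC vs. siOCT4-DMSO when siOCT4-DMSO replicate 3 is left out, as for the 0.76 of Prrx1. That fit sets slide 2 against slide 1. The POVPC change in siNT cells, within 1 slide, was between 0.74 and 1.03 with any array left out, and in siOCT4 cells it was between 0.76 and 1.39.

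**Figure D3:**
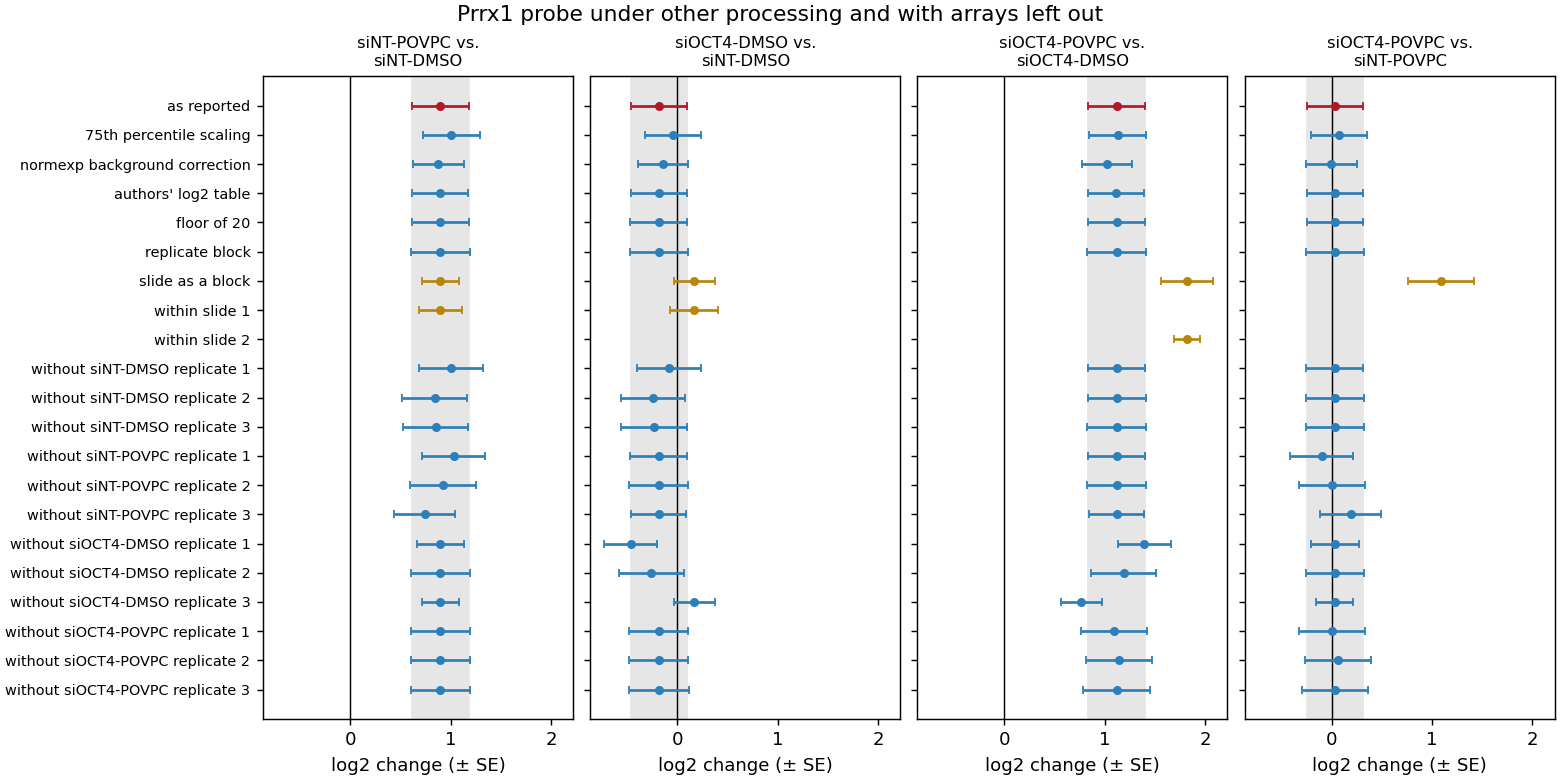
Log2 change (± SE) of the Prrx1 probe in the 4 comparisons under other processing and with each array left out, with the reported value ± SE as a grey band, and fits that use the slide in ochre. The POVPC changes stay above 0 throughout, from 0.74 to 1.03 in siNT cells and from 0.76 to 1.82 in siOCT4 cells, and siOCT4-POVPC vs. siNT-POVPC moves to 1.09 with the slide as a block.

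Genes with a signal like that of Prrx1 were sought among the 843 mRNA genes that could be named. The names come from tables of transcripts that the authors had picked for a change with POVPC in siNT cells, so a POVPC pattern is shared by selection and the likeness is given as a description over 12 arrays. The 5 highest were Col1a1 (r = 0.96), the chain of type I collagen made by mesenchymal cells, Tango6 (r = 0.95), a protein of the secretory pathway, Bmp1 (r = 0.94), the protease that trims procollagen ends, Tmem63a (r = 0.94), an ion channel, and Lrp1 (r = 0.94), an endocytic receptor of SMC. Over the 54505 other probes tested the median r was -0.0049 and the 99th percentile 0.77, and no other probe, named or not, had a higher r than Col1a1. For the deviations from the group means the r was 0.88 for Col1a1, 0.87 for Tango6, 0.83 for Bmp1, 0.81 for Tmem63a and 0.96 for Lrp1, where the 99th percentile was 0.88. For Prrx1, Col1a1, Bmp1 and Lrp1 the largest of those deviations was that of siOCT4-DMSO replicate 3.

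Col1a1 had the closest profile to Prrx1. It read 9.90, 9.87 and 10.38 in siNT-DMSO and 11.14, 11.34 and 11.51 in siNT-POVPC. It read 10.88, 10.29 and 8.42 in siOCT4-DMSO and 11.81, 11.56 and 11.71 in siOCT4-POVPC. As with Prrx1, siOCT4-DMSO replicate 3 was the lowest array. Its log2 difference from the mean of replicates 1 and 2 was -2.17 for Col1a1, -1.41 for Lrp1, -1.24 for Bmp1, -0.62 for Tmem63a and -0.44 for Tango6. The POVPC change in siOCT4 cells was 1.83 (SE 0.48) for Col1a1, and 1.11 (SE 0.23) without that array.

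The 5 named genes that ran most against Prrx1 were Pom121 (r = -0.94), a nuclear pore protein, Magoh (r = -0.92), a core protein of the exon junction complex, Irs2 (r = -0.90), an adaptor of insulin and IGF1 receptors, Epc1 (r = -0.89), a subunit of a histone acetyltransferase complex, and the predicted gene Gm20219 (r = -0.89). Magoh read 11.45, 11.73 and 11.48 in siNT-DMSO and 10.79, 10.77 and 10.69 in siNT-POVPC. It read 10.90, 11.19 and 11.86 in siOCT4-DMSO and 10.57, 10.41 and 10.63 in siOCT4-POVPC. POVPC arrays were below DMSO arrays with either siRNA for all 5, as for 10.4% of all probes in siNT and 12.3% in siOCT4 cells. On the same scale, siOCT4-DMSO replicate 3 was above the mean of its other 2 arrays by 0.73 for Pom121 up to 1.32 for Gm20219.

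**Figure D4:**
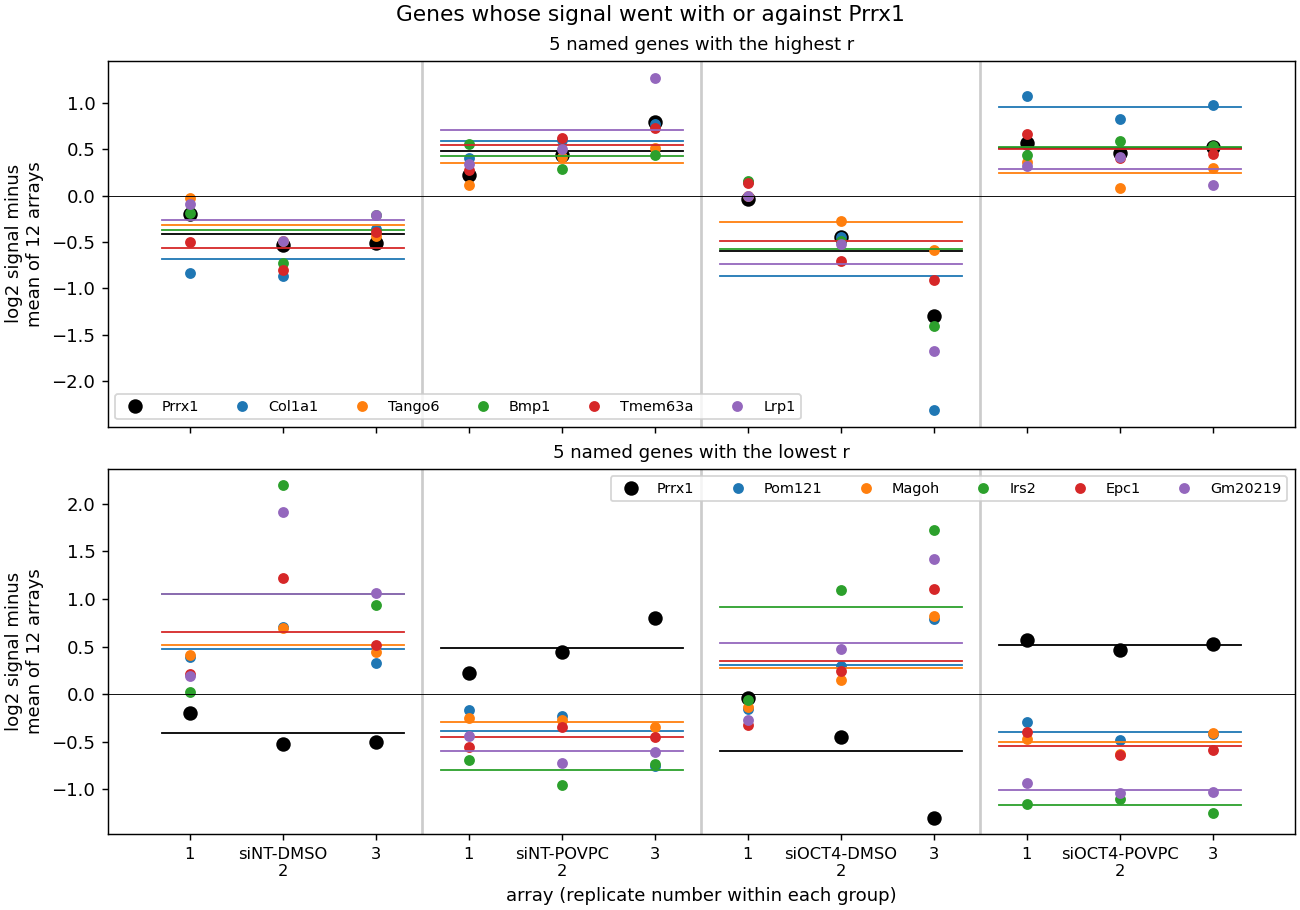
Log2 signal minus the mean of the 12 arrays for Prrx1 (black) and the 5 named genes with the highest (top) and the lowest (bottom) Pearson r with it, with points for arrays and lines for group means. Prrx1 and Col1a1, Bmp1 and Lrp1 are low together on siOCT4-DMSO replicate 3, where the lower panel's genes are high.

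Gene lists that bear on the known roles of Prrx1 were then read. The genes of each list that could be named were picked by the authors for their change in siNT-POVPC vs. siNT-DMSO, so that comparison is given without a test, and the comparisons that share the siNT-DMSO or siNT-POVPC arrays are not independent of the choice. In those comparisons the share of calls over all probes is not a like base for the picked genes. The comparison of siOCT4-POVPC with siOCT4-DMSO shares no array with it. There 0 of 40 listed genes apart from Prrx1 were called with limma, beside 0.00183% of all probes. A limma unadjusted p under 0.05 with a fold of at least 1.5 was reached by 17 of the 40, 13 of those higher with POVPC. Of all probes 9.0% reached it in either direction. Since the 40 were picked for a POVPC change, shares and medians over all probes are not a like base for them. Nothing about the lists is read from the difference. No alternative that leaves the slide out of the fit called any of the 40.

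Of 34 other homeobox genes 8 had a named probe, and in siOCT4-POVPC vs. siOCT4-DMSO 5 of them were higher and 3 lower, with a median log2 change of 0.43 against -0.01 over all probes. Among the higher genes were Nkx1-1 at 1.18 (SE 0.29, adjusted p = 0.235) and Tlx2 at 1.15 (SE 0.32, adjusted p = 0.246). Both are dim genes that were well above background on all 3 siOCT4-POVPC arrays but on 2 and 1 of the siOCT4-DMSO arrays. The sizes of their changes are therefore not exact. Pbx3, a partner of Hox proteins on DNA, read 8.99, 9.83 and 10.98 in siOCT4-DMSO and 8.65, 8.60 and 8.67 in siOCT4-POVPC, a change of -1.29 (SE 0.41, adjusted p = 0.27), and of -0.77 (SE 0.30, adjusted p = 0.343) without siOCT4-DMSO replicate 3. En2, a homeobox gene of the midbrain and hindbrain, was at background on the siOCT4-POVPC arrays (0 of 3 well above it) and was at least 2.20-fold lower there (adjusted p = 0.336), with 6.88 on siOCT4-DMSO replicate 3 against 4.44 and 4.15 on the others. Without that array En2 was at least 1.21-fold lower (adjusted p = 0.508). The bound takes the dim group at the lowest signal that is well above background on each array, or at its own signal where that is higher.

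Irx5, an Iroquois homeobox gene, rose in siOCT4-DMSO vs. siNT-DMSO, the 1 of 8 called there, beside 4.4% of all probes called higher. It read 7.88, 8.19 and 7.96 in siNT-DMSO and 8.87, 8.47 and 8.84 in siOCT4-DMSO. The groups did not overlap, as for 10.2% of all probes in that direction, and the change was 0.72 (SE 0.17, adjusted p = 0.0286 with limma). Irx5 was picked as higher in siNT-POVPC than in siNT-DMSO, and the siNT-DMSO arrays are used again here. The call was lost in 7 of 22 alternatives, with adjusted p-values between 0.0265 and 0.107 when arrays were left out. It went with only the 2 groups in the fit, the replicate block or slide 1 alone. It also went without siNT-DMSO replicate 1 or 3, siOCT4-DMSO replicate 1 or siOCT4-POVPC replicate 3. Without siOCT4-DMSO replicate 3 it held, and En2 (-1.42, adjusted p = 0.0409) and Pbx3 (-1.06, adjusted p = 0.0487) were called as well, both lower, beside 3.04% of all probes called lower in that fit. Hlx, the other homeobox gene gained there, was called lower in siOCT4-POVPC vs. siNT-POVPC (-1.21, adjusted p = 0.0168), beside 6.35%.

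Of 19 other mesenchymal transcription factors 5 could be named. Osr1, a zinc finger factor of embryonic mesoderm, was the nearest to Prrx1. It read 7.89, 7.23 and 7.70 in siNT-DMSO and 8.61, 8.49 and 8.22 in siNT-POVPC. It read 8.06, 7.60 and 6.62 in siOCT4-DMSO and 8.58, 8.63 and 8.56 in siOCT4-POVPC. The POVPC arrays were all above the DMSO arrays with either siRNA, as for 7.04% of all probes in siNT and 12.9% in siOCT4 cells. The Osr1 change in siOCT4 cells was 1.16 (SE 0.31, adjusted p = 0.243), and 0.76 (SE 0.22, adjusted p = 0.257) without siOCT4-DMSO replicate 3. Creb3l1, a membrane-bound factor that acts on collagen secretion, differed by 1.03 (SE 0.33, adjusted p = 0.271) in siOCT4 cells. Wt1 and Foxp1, which were higher after POVPC by 0.84 and 0.75 in siNT cells, read -0.30 and -0.30 in siOCT4 cells (adjusted p = 0.635 and 0.554), and -0.44 and -0.40 without that array. Foxp1 was then also called lower in siOCT4-POVPC vs. siNT-POVPC (-0.69, adjusted p = 0.0494), beside 6.35% of all probes called lower in that fit. None of the differences between the POVPC changes of these genes passed the test, with or without that array.

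Nfix, a nuclear factor I gene, fell in siOCT4-POVPC vs. siNT-POVPC. It read 9.24, 8.98 and 9.08 in siNT-POVPC and 8.36, 8.42 and 8.09 in siOCT4-POVPC. The groups did not overlap, as for 25.2% of all probes in that direction, and the change was -0.81 (SE 0.18, adjusted p = 0.0132 with limma), the 1 call among 5 genes, beside 4.08% of all probes called lower. Without siNT-POVPC replicate 1 or siOCT4-POVPC replicate 3 it was not called, with adjusted p-values from 0.00646 to 0.0692 over the arrays left out. Nfix was picked as higher in siNT-POVPC than in siNT-DMSO, and this comparison uses those siNT-POVPC arrays again.

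The matrix and receptor list had 15 of 30 genes named, 11 of them picked as higher and 4 as lower with POVPC. In siOCT4-POVPC vs. siOCT4-DMSO 13 were higher and 2 lower, with a median of 0.27, and POVPC arrays lay wholly above DMSO arrays for 7 of the 15, beside 12.9% of all probes. P3h3, a prolyl hydroxylase family member that acts on collagen, differed by 1.88 (SE 0.53), and Fbln2, an elastic fibre protein, by 1.11 (SE 0.29). Spp1, osteopontin, differed by 1.75 (SE 0.62) and was not well above background on siOCT4-DMSO replicate 3, at 2.38 against 4.95 and 5.62. Adjusted p-values for these 3 genes and Col1a1 were 0.235 to 0.296. Without siOCT4-DMSO replicate 3 the changes were 1.11 for Col1a1, 1.09 for P3h3, 0.73 for Fbln2 and 0.78 for Spp1, with adjusted p-values of 0.164 to 0.289, while 11 of the 15 were then higher and the list's median was 0.66.

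For the same list in siOCT4-DMSO vs. siNT-DMSO the median was -0.11 with all arrays and 0.48 without that array, when 12 of 15 genes were higher in place of 6. Prrx1 turned sign in the same way. Pdgfra, the PDGF receptor of fibroblasts and mesenchymal progenitors, was the 1 gene of the list called in siOCT4-POVPC vs. siNT-POVPC with all arrays, beside 7.18% of all probes called higher. It read 2.72, 2.69 and 2.77 in siNT-POVPC and 4.26, 4.50 and 4.61 in siOCT4-POVPC, a fitted difference of 1.73 (SE 0.24, adjusted p = 0.0012 with limma). Pdgfra was well above background on 1 of 3 siNT-POVPC arrays, so the size of this difference is not exact. It was picked as lower in siNT-POVPC than in siNT-DMSO, and the siNT-POVPC arrays are used again here. The call was lost with a floor of 20 on the signal (0.01, adjusted p = 0.975) and with normexp background correction (0.35, adjusted p = 0.0103). Without siOCT4-DMSO replicate 3 Mrc2, an endocytic receptor for collagen, was called higher there as well (0.71, adjusted p = 0.0114), beside 9.01% of all probes. In siOCT4-DMSO vs. siNT-DMSO Mrc2 (0.68, adjusted p = 0.0307) and Col4a5, a chain of basement membrane collagen (0.61, adjusted p = 0.0335), were then called higher, beside 7.93% of all probes.

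Of 18 contractile and SRF cofactor genes 4 could be named, all picked as lower with POVPC in siNT cells. In siOCT4-POVPC vs. siOCT4-DMSO, where Prrx1 was higher by 1.12, they read -0.44 for Tagln, -0.21 for Myh10, 0.21 for Smtn and 0.04 for Tln1, with adjusted p-values of 0.354 to 0.949. Without siOCT4-DMSO replicate 3 they read -0.36 for Tagln, -0.73 for Myh10, 0.21 for Smtn and -0.07 for Tln1, with adjusted p-values of 0.245 to 0.903. Tagln, the actin-binding protein SM22, fell in siOCT4-DMSO vs. siNT-DMSO, from 5.45, 5.54 and 5.23 to 4.35, 4.72 and 4.77. The change was -0.79 (SE 0.19, adjusted p = 0.0317 with limma), the 1 call among 4 genes, beside 2.19% of all probes called lower. Tagln was picked as lower in siNT-POVPC than in siNT-DMSO, and the siNT-DMSO arrays are used again here. The call was lost in 10 of 21 alternatives. With normexp the change was -0.33, under the fold limit, and with only the 2 groups in the fit, the replicate block or slide 1 alone the adjusted p-values were 0.143, 0.0604 and 0.0614. It was also lost with each of the 3 siNT-DMSO replicates, siOCT4-DMSO replicate 1 or 2 and siOCT4-POVPC replicate 3 left out (adjusted p-values 0.0544 to 0.119).

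Of 14 immediate early genes 8 could be named, 7 of them picked as lower. In siOCT4-DMSO vs. siNT-DMSO 3 of the 8 fell, beside 2.19% of all probes called lower. Egr1, a zinc finger factor induced by serum through SRF, read 16.33, 16.53 and 16.49 in siNT-DMSO and 14.77, 14.90 and 13.12 in siOCT4-DMSO, a change of -2.19 (SE 0.40, adjusted p = 0.00816 with limma). Nr4a1, an orphan nuclear receptor, changed by -1.43 (SE 0.24, adjusted p = 0.00541), and Ier5 by -1.60 (SE 0.26, adjusted p = 0.0038). The groups did not overlap for any of them, as for 13.6% of all probes in that direction. The calls held with each array left out, with adjusted p-values of at most 0.0372, and were lost with only the 2 groups compared in the fit (0.0702 to 0.0862). All 3 were picked as higher in siNT-DMSO than in siNT-POVPC, and this comparison uses those siNT-DMSO arrays again.

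With POVPC in siOCT4 cells 7 of these 8 genes were lower, with a median of -0.38, and none was called. Dusp5, a phosphatase of ERK, read 11.48, 12.68 and 10.61 in siOCT4-DMSO and 10.56, 10.11 and 10.34 in siOCT4-POVPC, a change of -1.26 (SE 0.48, adjusted p = 0.317). Spry2, an inhibitor of receptor tyrosine kinase signalling, differed by -0.72 (SE 0.20, adjusted p = 0.243), with no overlap of the groups, as for 12.3% of all probes in that direction. Myc read -0.55, Errfi1 -0.42 and Egr1 -0.01 (SE 0.40). Without siOCT4-DMSO replicate 3 the changes were -1.74 for Dusp5, -0.83 for Spry2, -0.18 for Myc, -0.85 for Errfi1 and -0.58 (SE 0.24) for Egr1, and again none was called. Egr1 was then also called lower in siOCT4-POVPC vs. siNT-POVPC (-0.84, adjusted p = 0.0219), beside 6.35% of all probes called lower in that fit.

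**Figure D5:**
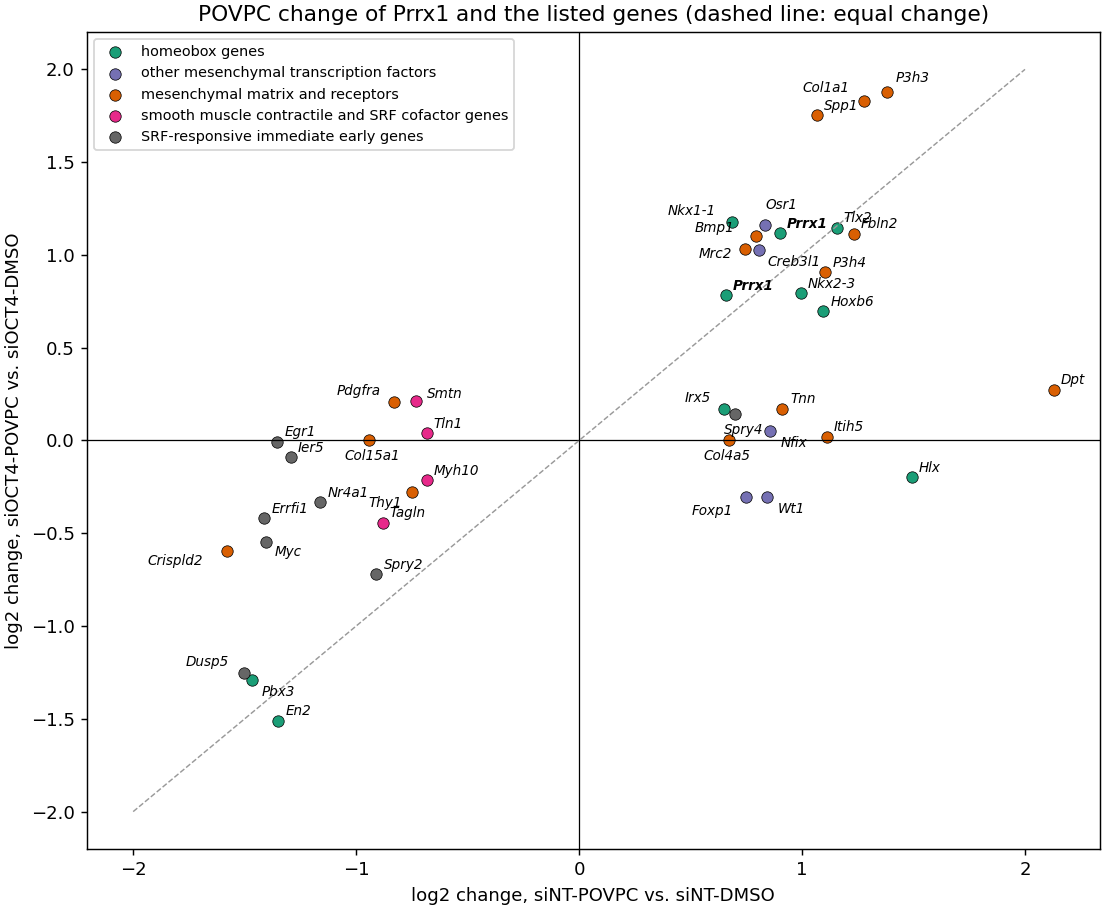
Log2 change with POVPC in siNT cells (x axis) and in siOCT4 cells (y axis) for both Prrx1 probes (bold) and the 40 listed genes, coloured by list, with equal change as a dashed line. Prrx1 lies near the line with Osr1, Bmp1, Creb3l1 and Fbln2, and Hlx, Dpt, Wt1 and Foxp1 lie near or below 0 on the y axis. The genes were picked on the x axis comparison.

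Markers of other cells were read where they could be named. Of 6 fibroblast markers 3 had a named probe, Pdgfra, Dpt and Thy1. Dpt, a matrix protein of fibroblasts, read 10.65, 10.62 and 8.98 in siNT-DMSO and 11.97, 12.16 and 12.51 in siNT-POVPC. It read 11.06, 11.24 and 11.04 in siOCT4-DMSO and 11.61, 11.63 and 10.93 in siOCT4-POVPC. Its change with POVPC was 2.13 (SE 0.39) in siNT cells and 0.27 (SE 0.39) in siOCT4 cells. With POVPC in siOCT4 cells Pdgfra read 0.20 and Thy1 -0.28, and 0.07 and -0.37 without siOCT4-DMSO replicate 3. The fibroblast markers did not all move the way of Prrx1, and in siNT cells 1 of the 3 was higher and 2 were lower. Of 6 endothelial markers Notch4 was named, at 0.63 (SE 0.32) with POVPC in siNT and 0.45 (SE 0.32) in siOCT4 cells, and none of 6 macrophage markers was. Without siOCT4-DMSO replicate 3 the Notch4 change in siOCT4 cells was 0.05 (SE 0.23). Notch4 was then called higher with limma in siOCT4-DMSO vs. siNT-DMSO, by 1.31 (adjusted p = 0.00548). It was also called in siOCT4-POVPC vs. siNT-POVPC, by 0.73 (adjusted p = 0.0349), where slide and group cannot be told apart. In that fit 7.93% and 9.01% of all probes were called higher. With all arrays Notch4 read 0.91 (adjusted p = 0.111) and 0.73 (adjusted p = 0.164) in these comparisons. On these bulk arrays a higher signal per cell and a larger share of cells that make the RNA cannot be told apart, and the part of cell makeup in the Prrx1 values was not tested.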

How the data were processed

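Single-colour Arraystar mouse lncRNA and mRNA arrays of 12 RNA samples were used, 3 for each of 4 groups taken from the labels. For each array the authors deposited the Agilent Feature Extraction 11.0.1.1 output (per the submitters' processing notes), with a processed signal, an intensity from which the software had subtracted the background, and the unprocessed spot and background intensity. Their deposited value table gives log2 values for 60641 probes, quantile normalized per their methods. The columns have a median of 6.37 and correlated with the scanner signals at an r of 0.997 to 1, so scale and direction match, and the table served as an alternative. Supplementary tables with the authors' p-values and folds were used only for probe names, bases, transcripts and coordinates, and for the direction in which a probe was listed.

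Outlier spots were set to missing, processed signals under 5 were set to 5, and limma 3.58.1 (R 4.3.3) normalized the log2 values of the 12 arrays by quantiles. The 54506 probes detected well above background on 3 or more arrays were tested. A mean per group was fitted with lmFit and eBayes, with Benjamini-Hochberg adjustment over all probes tested and calls at an adjusted p under 0.05 and a fold of at least 1.5. Each array had 49015 to 55326 probes clear of background and none saturated, and precision is limited by the 3 arrays a group. In data simulated with 200 of 54506 probes changed by 2 (log2), 165, 161, 157 and 151 were recovered in the 4 comparisons (siNT-POVPC vs. siNT-DMSO, siOCT4-DMSO vs. siNT-DMSO, siOCT4-POVPC vs. siOCT4-DMSO, siOCT4-POVPC vs. siNT-POVPC).

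Prrx1 and the gene lists were chosen with earlier results of these data known. Named are both Prrx1 probes, per list the up to 4 genes with the largest change in siOCT4-POVPC vs. siOCT4-DMSO and every gene called in a comparison, and the 5 genes with the highest and the 5 with the lowest r with Prrx1. Hlx, Mrc2 and Col4a5, outside these rules, were named after their values were seen. Names of 857 mRNA probes (843 genes) were used, of which 826 of 827 with a symbol in the RefSeq table of GRCm38.p6 overlap that gene. The scanner headers name another build. Alternatives were 75th percentile scaling, normexp with an offset of 50 on the median signal (the files hold no mean), the deposited log2 table, signals floored at 20, all probes or those detected on every array, a fit of just the compared groups, the replicate number or the slide as a block, single slides, each array left out, and the methods' t-test.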

Additional observations from a re-analysis of the deposited data

How the results depend on the processing

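The POVPC change of Prrx1 kept its sign with both probes under every alternative run, in siNT and in siOCT4 cells. Values that moved by more than the replicate SD (0.34, second probe 0.28) were those tied to siOCT4-DMSO replicate 3 or the slide. With the slide as a block the member and second probe read 1.82 and 1.36 for POVPC in siOCT4 cells, 0.17 and 0.44 for the knockdown in DMSO, 1.09 and 1.14 for the knockdown in POVPC, and 0.92 and 0.71 for the difference of the POVPC changes. Single slides gave 0.17 and 0.44 (slide 1) and 1.82 and 1.36 (slide 2). With each array left out the member and second probe ran from 0.74 to 1.03 and from 0.55 to 0.77 for POVPC in siNT cells, from -0.46 to 0.17 and from -0.068 to 0.44 for the knockdown in DMSO, from 0.76 to 1.39 and from 0.49 to 1.00 for POVPC in siOCT4 cells, from -0.10 to 0.19 and from 0.16 to 0.38 for the knockdown in POVPC, and from -0.14 to 0.49 and from -0.17 to 0.34 for the difference. The causes were not tested.

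Counts of calls depended on the processing more than Prrx1 did. In siNT-POVPC vs. siNT-DMSO, with 4 calls, normexp gave 36, a floor of 20 gave 7, only the 2 groups 0, the slide as a block 25, slide 1 alone 0, the methods' t-test 2416 unadjusted and 0 adjusted, limma at an unadjusted p 5653, and arrays left out 0 to 504. In siOCT4-DMSO vs. siNT-DMSO, with 3596, only the 2 groups gave 777, the slide as a block 5976, the adjusted t-test 72, limma unadjusted 8937, and arrays left out 1737 to 5976. In siOCT4-POVPC vs. siOCT4-DMSO, with 1, 75th percentile scaling gave 21, normexp 0, a floor of 20 gave 6, no filter 2, probes detected on every array 0, a fit of just the compared groups 0, the slide as a block 5105, slide 2 alone 15332, the t-test 2989 unadjusted and 3 adjusted, limma unadjusted 4905, and arrays left out 0 to 12. In siOCT4-POVPC vs. siNT-POVPC, with 6137, 75th percentile scaling gave 12025, normexp 3327, the slide as a block 9770, the t-test 10114 unadjusted, limma unadjusted 10821, and arrays left out 2918 to 8374. The difference of the POVPC changes had 0 calls, and 2374 with the slide as a block. 

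Replicate numbers did not pair the samples, since deviations of same-numbered arrays correlated at an r of -0.20 up to 0.36. A fit with this replicate block left the Prrx1 changes as they were, from -0.18 to 1.12, and gave 1 call for POVPC in siNT cells, 0 in siOCT4 cells, and 3009 (DMSO) and 5585 (POVPC) for the knockdown. Egr1 in siOCT4-POVPC vs. siOCT4-DMSO turned to 1.14 with the slide as a block and on slide 2, and Myh10 to 0.83 on slide 2, which holds 1 siOCT4-DMSO array. Of the other results on named genes under alternatives, 2358 stayed on their side of the threshold, 67 passed it only there and 24 lost it. With 3 arrays a group the SE of each Prrx1 change was 0.28.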
